A study of Mus musculus with 16 samples.

Results

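The Nrf2 pathway antioxidant genes described here are 10 genes, chosen by symbol from the 48440 genes listed for each intestinal segment, and all 10 passed the filter on low values in all 3 segments. They are the regulator Nfe2l2, which encodes Nrf2, its inhibitor Keap1, and 8 genes of enzymes that reduce quinones, make glutathione, repair oxidized proteins or remove peroxides, Nqo1, Gclc, Gclm, Txnrd1, Srxn1, Gpx1, Gpx2 and Cat. RNA-Seq of green fluorescent protein-positive (GFP+) cells sorted from the small intestine was used to ask how gene expression in intestinal stem and progenitor cells differed between mice with vertical sleeve gastrectomy (VSG), in which most of the stomach is cut away, and mice with sham surgery. All groups were female Lgr5eGFP mice, whose Lgr5 locus, active in stem cells, drives the fluorescent protein, and all had been fed a diet with 60% fat for 16 weeks before VSG or sham surgery and were studied 4 weeks after it. The mice had been fasted overnight and given a liquid meal 15 minutes before collection, an age of 8 to 16 weeks is stated for all animals of the study, and 6 cm of each segment was taken. For these mice that range cannot be the age at collection, given the 16 weeks of diet before surgery and the 4 weeks after it. Immune, endothelial, apoptotic and dead cells had been sorted out first. The 16 libraries came from 7 mice, with 4 VSG and 2 sham libraries from the duodenum, 4 VSG and 2 sham libraries from the jejunum of the same 6 mice, and 2 VSG and 2 sham libraries from the ileum, 1 mouse per library.

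In unstressed cells Keap1 holds Nrf2 in the cytoplasm and hands it to a ubiquitin ligase, so that the protein is made and destroyed all the time. Oxidants and electrophiles modify cysteines of Keap1, Nrf2 then builds up in the nucleus, pairs with a small Maf protein and binds antioxidant response elements near its target genes. Because Nrf2 is set mainly by protein stability, its transcript says little about its activity, and its targets are read in its place. In the gut epithelium these enzymes meet bile acids, food electrophiles and bacterial oxidants, and Gpx2 is known as the glutathione peroxidase of the crypt base.

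The core of the antioxidant response element, the letters TGACNNNGC on either strand, was looked for in the RefSeq windows of 300 bases around transcript starts (250 before to 50 after, build GRCm38.p6). The members are the pathway's own regulator, its inhibitor and enzyme genes grouped with the pathway. Windows were found for 9 of the 10 members, all but Gclc, and 4 of their 11 windows held a match, each in a different gene, against 12.4% of all 32851 windows. The matches stand in capitals in the stretches of 29 bases that follow, written 5′ to 3′ on the gene's own strand. None overlaps the letters TGANTCA, which are bound by AP-1 factors. The Srxn1 window held 2 matches to TGANTCA elsewhere.
Nfe2l2, chr2:75704885-75704913, minus strand: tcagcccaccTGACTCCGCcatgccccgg
Gclm, chr3:122245413-122245441, plus strand: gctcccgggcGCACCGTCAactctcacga
Srxn1, chr2:152105542-152105570, plus strand: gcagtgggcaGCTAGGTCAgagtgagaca
Txnrd1, chr10:82859104-82859132, plus strand: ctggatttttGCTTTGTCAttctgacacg
The match lay 240 to 232 bases before the start in Nfe2l2 and 134 to 126 bases before it in Gclm. In Txnrd1 it lay 92 to 84 bases before the start of 1 of 3 windows, and in Srxn1 between positions 29 and 37 after the start. The letters TGACNNNGC read along the gene's strand in Nfe2l2 and along the opposite strand in Gclm, Srxn1 and Txnrd1. The windows of Keap1, Nqo1, Gpx1, Gpx2 and Cat held no match, which says only that these letters are not in these windows. A match is a description of sequence and not evidence of binding.

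Since the deposited counts had been normalized with DESeq2 separately for each segment, levels are compared between libraries of a segment and not between segments. They summed to 46.9 to 51.7 M per duodenal library, 33.5 to 47.1 M per jejunal library and 21.98 to 25.01 M per ileal library. The most common low value of each library, taken as 1 read, put the reads behind them at 10.9 to 63.6 M per library. That estimate assumes the same factor for every gene of a library, which could not be settled. Some libraries stood apart. Sham replicate 1 of the jejunum had the largest total, 73.4% of genes listed at 0, no reads of Lgr5 and a summed stem cell marker level of 15907 against 36665 to 56147 in the other 5 libraries, and its summed level of 15 enterocyte markers was 2771980 against 687978 to 1226990. VSG replicate 1 of the jejunum had 196951 normalized counts of Fabp6, a gene of ileal enterocytes chosen after its values were seen, against 15.8 to 313 in the other jejunal libraries. Lgr5 was also listed at 0 in sham replicate 1 of the ileum. VSG replicate 1 of the duodenum had 6565 normalized counts of Lgr5, against 884 to 2638 in the other duodenal libraries. Its summed stem cell markers were the highest of the duodenum (143687 against 69498 to 104938) and its summed enterocyte markers the lowest (416880 against 590555 to 1448450). In the duodenum the summed enterocyte markers reached 416880 to 883666 after VSG and 968002 and 1448450 after sham surgery, and the summed tuft cell markers 18538 to 39563 after VSG and 5547 and 14298 after sham surgery. In sorted bulk cells, fewer cells of a type and less RNA per cell cannot be told apart.

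Within a segment, VSG and sham libraries were compared with limma, which borrows information on variance from all genes, using log2(normalized count + 1) of the genes whose mean passed 10 and adjusting p-values over all of them. With 4 libraries against 2 the smallest two-sided exact permutation p is 0.0667, and with 2 against 2 it is 0.333, so no exact test of a single gene could reach 0.05. A gene was called at a mean above 50 and an absolute log2 fold change above 0.5 if its unadjusted p was under 0.05 and its adjusted p under 0.2. With all libraries, no member was called in any segment, and 0.0237% of duodenal, 0.0126% of jejunal and 0% of ileal genes were called. Omitting sham replicate 2 of the jejunum leaves only the sham library that stood apart. Jejunal Cat then had a log2 fold change of -1.54 and Gclc of -1.05. That fit rests on a lone sham library, so its calls are not read as evidence on single genes. At an unadjusted limma p under 0.05, 2 members stood out in the duodenum (Gpx2 higher and Cat lower after VSG), 2 in the jejunum (Cat and Gclc lower) and 1 in the ileum (Gpx2 lower). The shares of all genes at that level were 2.79% higher and 3.48% lower in the duodenum, 3.63% higher and 2.4% lower in the jejunum, and 2.09% higher and 1.19% lower in the ileum. In the duodenum the VSG libraries did not overlap the sham libraries for 1 member above (Gpx2) and 2 below (Nqo1 and Cat), against 6.44% and 8.01% of all genes. The jejunum had 0 members above and 3 below (Nqo1, Gclc and Cat), against 6.59% and 6.21% of all genes. The ileum, with 2 libraries a group, had 3 above (Nfe2l2, Gclc and Txnrd1) and 1 below (Gpx2), against 17% and 11.6% of all genes. The median log2 fold change of the 10 members was -0.21 in the duodenum (all genes 0.00856), -0.50 in the jejunum (all genes 0.11) and 0.48 in the ileum (all genes 0.24).

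**Figure D1:**
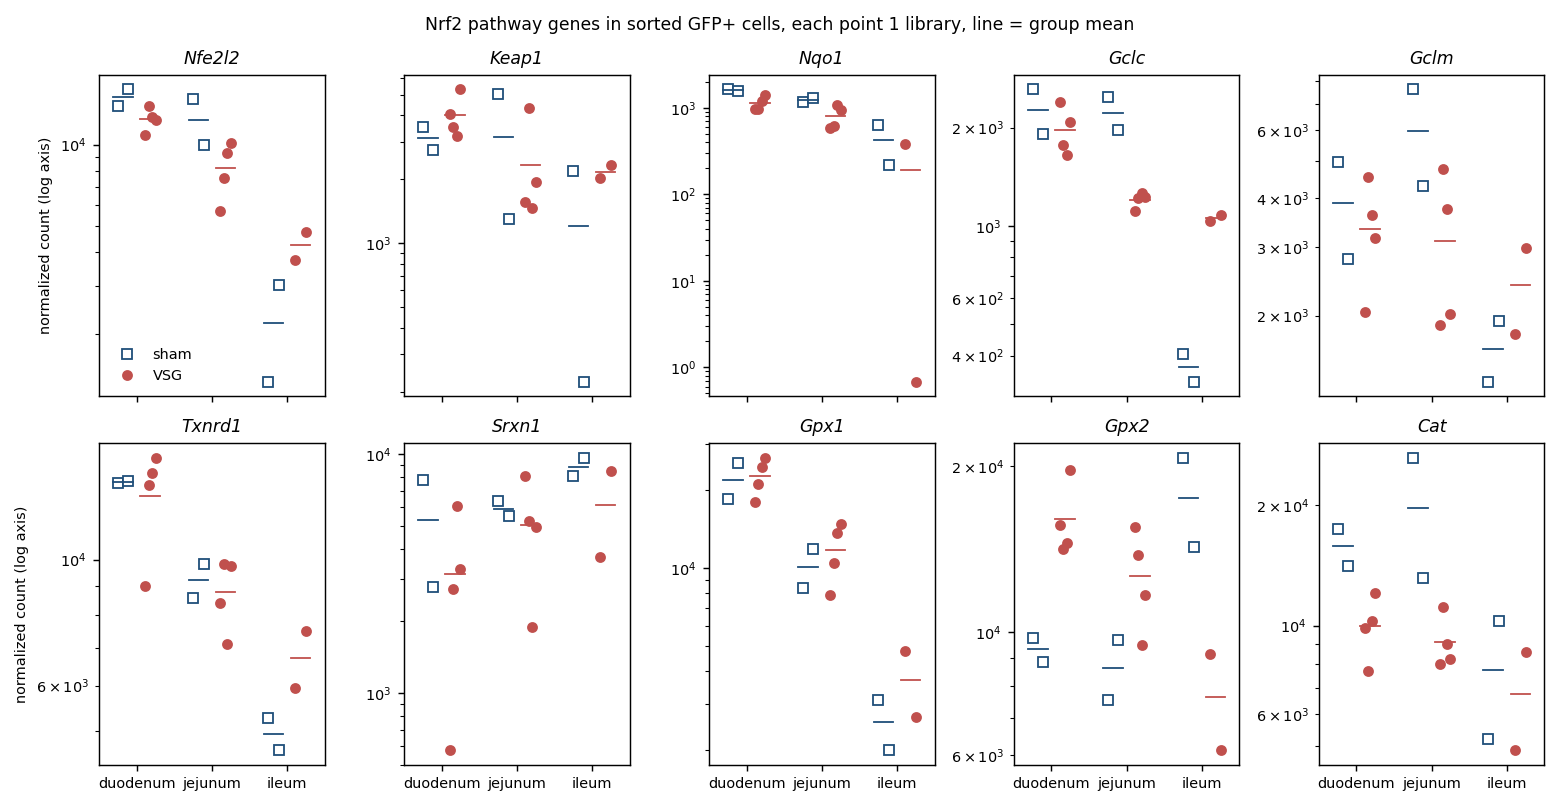
Normalized counts of the 10 genes in every library (y axis, log scale), by intestinal segment (x axis), with sham libraries as open squares, VSG libraries as filled circles and group means as lines. Duodenal Gpx2 lay at 14184 to 19722 after VSG and at 8852 and 9784 after sham surgery, duodenal Cat at 7717 to 12093 and at 14098 and 17478, and 1 ileal VSG library of Nqo1 lay at 0.686.

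Nfe2l2 (ENSMUSG00000015839, chromosome 2, 75675513 to 75704641, minus strand), the gene of Nrf2 itself, was among the more abundant members. In the duodenum it had 10816, 13939, 12620.4 and 12353 normalized counts (VSG replicates 1 to 4, in this order throughout) against 13938 and 16025 (sham replicates 1 and 2). VSG replicate 2 lay level with sham replicate 1, and the other 3 VSG libraries lay below both sham libraries. The log2 fold change was -0.27 (SE 0.20, adjusted p = 0.88 from limma). In the jejunum the values were 5698, 7499, 9342 and 10153 after VSG and 14738 and 9938 in sham mice, and the log2 fold change was -0.60 (SE 0.35, adjusted p = 0.76 from limma). VSG replicate 4 lay just above sham replicate 2, and sham replicate 1, the library that stood apart, was the highest. Without that library the jejunal change was -0.32. In the ileum both VSG libraries (3746 and 4755 in replicates 4 and 5) lay above both sham libraries (1333 and 3040.0), with a log2 change of 1.07 (SE 0.57, adjusted p = 0.736 from limma) and an exact permutation p of 0.333, the smallest that 2 libraries against 2 allow.

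Keap1 (ENSMUSG00000003308, chromosome 9, 21229730 to 21239361, minus strand), the adaptor that marks Nrf2 for destruction, varied more between libraries than Nfe2l2. Duodenal levels were 4044, 3536, 3207 and 5302 after VSG and 3506 and 2729 after sham surgery, with the 2 groups overlapping and a log2 change of 0.35 (SE 0.27, adjusted p = 0.88 from limma). In the jejunum 2 libraries were high, VSG replicate 2 at 4319.5 and sham replicate 1 at 5009, while VSG replicates 1, 3 and 4 had 1557, 1469 and 1935 and sham replicate 2 had 1305. The jejunal log2 fold change of -0.29 became 0.68 without sham replicate 1. In the ileum, sham replicate 2 had 224 normalized counts and the other 3 libraries had 2016 to 2322. The ileal change of 1.63 therefore rested on that library and was -0.0132 without it. An antisense gene, Gm16754, overlaps Keap1 and had at most 132 normalized counts in any library.

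Nqo1 (ENSMUSG00000003849, chromosome 8, 107388225 to 107403206, minus strand), a quinone reductase and the most used readout of Nrf2 activity, was lower in every VSG library than in both sham libraries of the duodenum and of the jejunum. Its duodenal values were 960.1, 955, 1205 and 1390.3 after VSG and 1639 and 1571 after sham surgery, or 1128 ± 211 after VSG (SD, n = 4) against 1605 ± 48.6 in sham mice (SD, n = 2). The log2 fold change was -0.53 (SE 0.33, adjusted p = 0.88 from limma) with an exact permutation p of 0.133. In the jejunum it had 585, 612, 1076 and 938 after VSG and 1154 and 1303 in the 2 sham libraries, and the log2 fold change was -0.66 (SE 0.50, adjusted p = 0.774 from limma) with an exact permutation p of 0.133. The 2 jejunal VSG libraries with the lowest values were replicates 1 and 2. Leaving out each library in turn kept both changes below 0, between -0.63 and -0.45 in the duodenum and between -0.82 and -0.52 in the jejunum. In the ileum VSG replicate 4 had 383 and the sham libraries 627 and 217, but VSG replicate 5 had 0.686, the value taken as 1 read. The ileal log2 fold change of -3.86 (95% confidence interval -11.54 to 3.82) came from that library and was 0.0514 without it.

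Gclc (ENSMUSG00000032350, chromosome 9, 77754535 to 77794485, plus strand) and Gclm (ENSMUSG00000028124, chromosome 3, 122245557 to 122270732, plus strand) encode the catalytic and the modifier subunit of glutamate-cysteine ligase, the rate-limiting enzyme of glutathione synthesis. Gclc in the jejunum was the more separated of the pair, with 1108, 1213, 1261 and 1229 after VSG against 2484 and 1959.6 in sham mice. The VSG libraries lay within a narrow band and all below both sham libraries, with 1202 ± 66.2 after VSG (SD, n = 4) against 2222 ± 371 in sham mice (SD, n = 2). The log2 fold change was -0.88 (SE 0.38, adjusted p = 0.76 from limma), with an exact permutation p of 0.0667, the smallest that 4 libraries against 2 allow. Without sham replicate 1 it was -0.71, and with each library scaled to the same total -0.65. In the duodenum Gclc had 2386, 1774, 1645 and 2079 after VSG and 2622 and 1911 after sham surgery, with overlapping groups and a log2 change of -0.20 (SE 0.29, adjusted p = 0.912 from limma). In the ileum the direction was the opposite of that in the jejunum, with 1033 and 1076 after VSG and 405 and 333 after sham surgery. Both ileal VSG libraries lay above both sham libraries, with a log2 change of 1.52 (SE 0.80, adjusted p = 0.736 from limma) and an exact permutation p of 0.333.

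Gclm values were more scattered. In the duodenum it had 2047, 4543, 3626 and 3165 after VSG and 4968 and 2793 in sham mice, and the log2 fold change was -0.21 that lay between -0.63 and 0.20 as single libraries were left out. In the jejunum it had 1889.9, 4749.6, 3764 and 2018 after VSG and 7628 and 4292 in sham mice, and the log2 fold change was -0.99 (SE 0.46, adjusted p = 0.76 from limma). It was -0.58 without sham replicate 1 and -1.41 without sham replicate 2. Sham replicate 1 was the highest and VSG replicate 2 lay above sham replicate 2, so the groups overlapped. The ileal values were 1793 and 2991 after VSG and 1354 and 1932 in sham mice, and the log2 fold change was 0.52 (SE 0.57, adjusted p = 0.736 from limma). A pseudogene on the same strand, Gm6061, overlaps Gclm and had up to 996 normalized counts in 1 ileal library, so reads near it could have been split between the pair.

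Txnrd1 (ENSMUSG00000020250, chromosome 10, 82833951 to 82897712, plus strand), the cytosolic thioredoxin reductase, was the member nearest to equal levels in both groups of the duodenum and the jejunum apart from duodenal Gpx1. Duodenal levels were 8986, 13546, 14220.0 and 15110.2 after VSG and 13616 and 13749.5 after sham surgery, so that only VSG replicate 1 lay clearly apart. The log2 fold change was -0.11, with a 95% confidence interval of -0.67 to 0.46. In the jejunum the values were 8373, 9835, 7111 and 9744 after VSG and 8569 and 9808 in sham mice, and the log2 fold change was -0.077 with an interval of -0.74 to 0.59. Both signs turned with a change of setting, to 0.0614 in the duodenum without VSG replicate 1 and to 0.15 in the jejunum with each library scaled to the same total. In the ileum both VSG libraries (5939.6 and 7490.5) lay above both sham libraries (5256 and 4618), with a log2 change of 0.44 (SE 0.38, adjusted p = 0.736 from limma).

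Srxn1 (ENSMUSG00000032802, chromosome 2, 152105516 to 152111376, plus strand), sulfiredoxin, which repairs overoxidized peroxiredoxins, was the member with the widest spread between duodenal libraries. Its duodenal values were 575, 2709, 6033 and 3286 after VSG against 7798 and 2769.7 in sham mice. VSG replicate 1 was far below the rest and the sham libraries differed more than 2-fold, and the log2 fold change of -0.98 (SE 0.80, adjusted p = 0.88 from limma) was -0.30 without VSG replicate 1 and -0.23 without sham replicate 1. Jejunal values were 8096, 5228, 1881 and 4958 after VSG and 6319.5 and 5469 after sham surgery, and the sham libraries lay inside the range of the VSG libraries (log2 fold change -0.40 (SE 0.51, adjusted p = 0.85 from limma)). In the ileum it had 3716 and 8507 after VSG and 8055 and 9624 in sham mice, and the log2 fold change was -0.65 (SE 0.50, adjusted p = 0.736 from limma).

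Gpx2 (ENSMUSG00000042808, chromosome 12, 76792333 to 76795554, minus strand), the gastrointestinal glutathione peroxidase, showed the largest difference of any member relative to its error in the duodenum. All 4 duodenal VSG libraries, at 15686, 14184, 14515 and 19722, lay above both sham libraries, at 9784 and 8852. The means were 16027 ± 2546 after VSG (SD, n = 4) against 9318 ± 659 in sham mice (SD, n = 2). The log2 fold change was 0.77 (SE 0.22, adjusted p = 0.501 from limma), with an exact permutation p of 0.0667, the smallest possible, and 0.67 to 0.84 as single libraries were left out. In the jejunum the values were 15533, 13795, 9501 and 11699.8 after VSG and 7556 and 9706 after sham surgery. VSG replicate 3 lay below sham replicate 2 and the other 3 VSG libraries lay above both sham libraries, a log2 change of 0.54 (SE 0.32, adjusted p = 0.76 from limma). That change was 0.36 without sham replicate 1, 0.72 without sham replicate 2 and 0.43 without VSG replicate 1. In the ileum the direction was the opposite, with 9129.7 and 6119 after VSG and 20732 and 14262 in sham mice, and the log2 fold change was -1.20 (SE 0.39, adjusted p = 0.736 from limma). Fntb, on the opposite strand, overlaps Gpx2 and had at most 1404 normalized counts, and the processed copy Gpx2-ps1 at most 10.1, against at least 6119 for Gpx2 in any library. The library kit keeps strand, but the strand setting used for quantification is not given in the sources used here.

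Gpx1 (ENSMUSG00000063856, chromosome 9, 108338903 to 108340343, plus strand), the cytosolic glutathione peroxidase found in every tissue, did not follow Gpx2. In the duodenum it had 17981, 21028, 24526 and 26498 after VSG and 18351 and 25369 after sham surgery, with overlapping groups, a log2 change of 0.0453 and a 95% confidence interval of -0.50 to 0.59. In the jejunum it had 7882, 10429, 13598 and 14791 after VSG and 8356 and 11814 in sham mice, and the log2 fold change was 0.19 with an interval of -0.60 to 0.98. In the ileum it had 4767 and 2665 after VSG and 3096 and 1990.1 in sham mice, and the log2 fold change was 0.52 with an interval of -0.82 to 1.86. VSG replicate 5 lay between the ileal sham libraries, and the groups overlapped in all 3 segments.

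Cat (ENSMUSG00000027187, chromosome 2, 103453849 to 103485160, minus strand), catalase, the peroxisomal enzyme that splits hydrogen peroxide, was lower in every VSG library of the duodenum and of the jejunum than in both sham libraries. In the duodenum it had 9853, 7717, 10288 and 12093 after VSG and 17478 and 14098 after sham surgery, or 9988 ± 1798 after VSG (SD, n = 4) against 15788 ± 2390.0 in sham mice (SD, n = 2). The log2 fold change was -0.67 (SE 0.24, adjusted p = 0.644 from limma), with an exact permutation p of 0.0667. In the jejunum it had 8034, 11123, 9001 and 8266 after VSG and 26286 and 13167 in sham mice, and the log2 fold change was -1.04 (SE 0.35, adjusted p = 0.76 from limma) with the same exact permutation p of 0.0667. Sham replicate 1 of the jejunum, the library with the highest enterocyte markers, was also the highest for Cat, and without it the jejunal change was -0.54. In the ileum Cat had 4881 and 8596 after VSG and 5201 and 10297 after sham surgery, with overlapping groups and a log2 change of -0.18 (SE 0.51, adjusted p = 0.942 from limma).

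**Figure D2:**
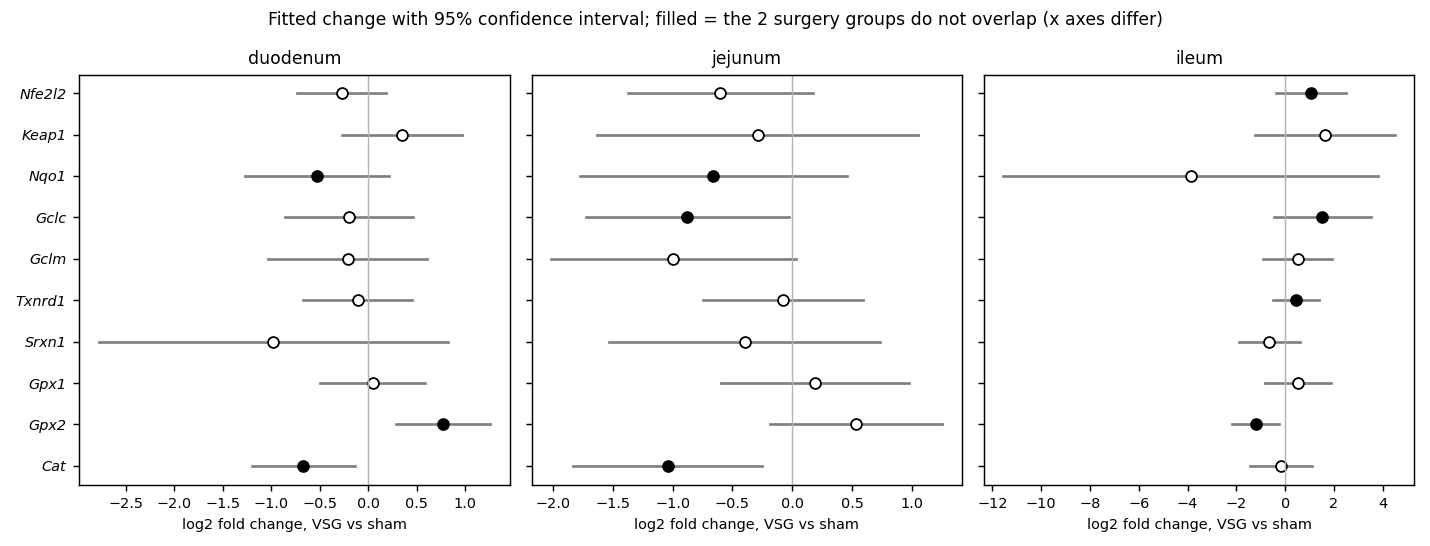
Fitted log2 fold change of VSG against sham (x axis, a different range in each panel) for each gene (y axis) in the duodenum, jejunum and ileum, with bars for the 95% confidence interval and filled points where the 2 surgery groups do not overlap. Filled points are Nqo1, Gpx2 and Cat in the duodenum, Nqo1, Gclc and Cat in the jejunum, and Nfe2l2, Gclc, Txnrd1 and Gpx2 in the ileum.

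The difference between the jejunal and the duodenal change was tested in the 6 mice that gave both segments, by subtracting the duodenal from the jejunal log2 value of every mouse. No member had an unadjusted limma p under 0.05, against 4.23% of the 14718 genes tested. The differences for the glutamate-cysteine ligase subunits were -0.78 (SE 0.39, exact permutation p = 0.0667, adjusted p = 0.985 from limma) for Gclm, while Gclc had -0.68 (SE 0.41, exact permutation p = 0.133, adjusted p = 0.985 from limma). For Gpx2 it was -0.23 (SE 0.44, exact permutation p = 0.467, adjusted p = 0.995 from limma). Cat had -0.37 (SE 0.48, exact permutation p = 0.333, adjusted p = 0.986 from limma). The ileum shares only part of its mice with the other segments, and its differences from them were not tested.

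Levels were set beside each other within a segment per kb of exon. Whether the deposited values also carry a factor that differs from gene to gene could not be settled, and such a factor would shift the order of levels between genes. Gpx1 led in the duodenum with a mean level of 15469.9 normalized counts per kb and Gclm and Gclc were the lowest with 560.1 and 549.6. Between them came Cat (4562), Gpx2 (4280.2), Nfe2l2 (3499), Txnrd1 (1863), Srxn1 (1369), Nqo1 (829) and Keap1 (793). The range over the 6 libraries of Gpx1, 12478 to 18388, lay wholly above that of Cat, 2953 to 6689. The ranges of Cat, Gpx2 and Nfe2l2 overlapped, as did those of Txnrd1 and Srxn1, and those of Nqo1, Keap1, Gclm and Gclc, and the wide range of Srxn1, 204 to 2765, also reached into that of Gpx2 and into those of Nqo1, Keap1, Gclm and Gclc. In the jejunum the order was Gpx1 (7734), Cat (4839.7), Gpx2, Nfe2l2, Srxn1, Txnrd1, Gclm, Nqo1, Keap1 and Gclc (409.5), and every neighbouring pair overlapped in range. In the ileum Gpx2 led with 3898, followed by Cat (2772), Srxn1 (2651) and Gpx1 (2172), whose ranges overlapped, while the levels of the other 6 members were 848 or less. The ranges of Gpx1 and Nfe2l2 did not overlap there (1381 to 3308 and 351 to 1253 normalized counts per kb).

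Co-variation was computed over the 6 libraries of the duodenum and of the jejunum for all 45 pairs of members in each, as Pearson's r and Spearman's rho of log2(normalized count + 1). Of the 90 tests on r, 11 had an exact permutation p under 0.05 (4 duodenal and 7 jejunal, two-sided over 720 pairings), and 0 had an adjusted p under 0.05, with a lowest adjusted p of 0.2 in the exact permutation test. In the duodenum 4 pairs had an r of at least 0.8 and 0 an r of -0.8 or less, against 3.46% and 3.4% of all pairs of tested genes. In the jejunum 4 pairs had an r of at least 0.8 and 3 an r of -0.8 or less, against 4.58% and 4.16% of all pairs. An r was positive for 55.6% of the duodenal and 60% of the jejunal member pairs, against 50.2% and 51.0% of all pairs of genes. Since each set of 6 libraries holds both surgery groups, a pair that differs with surgery also co-varies.

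**Figure D3:**
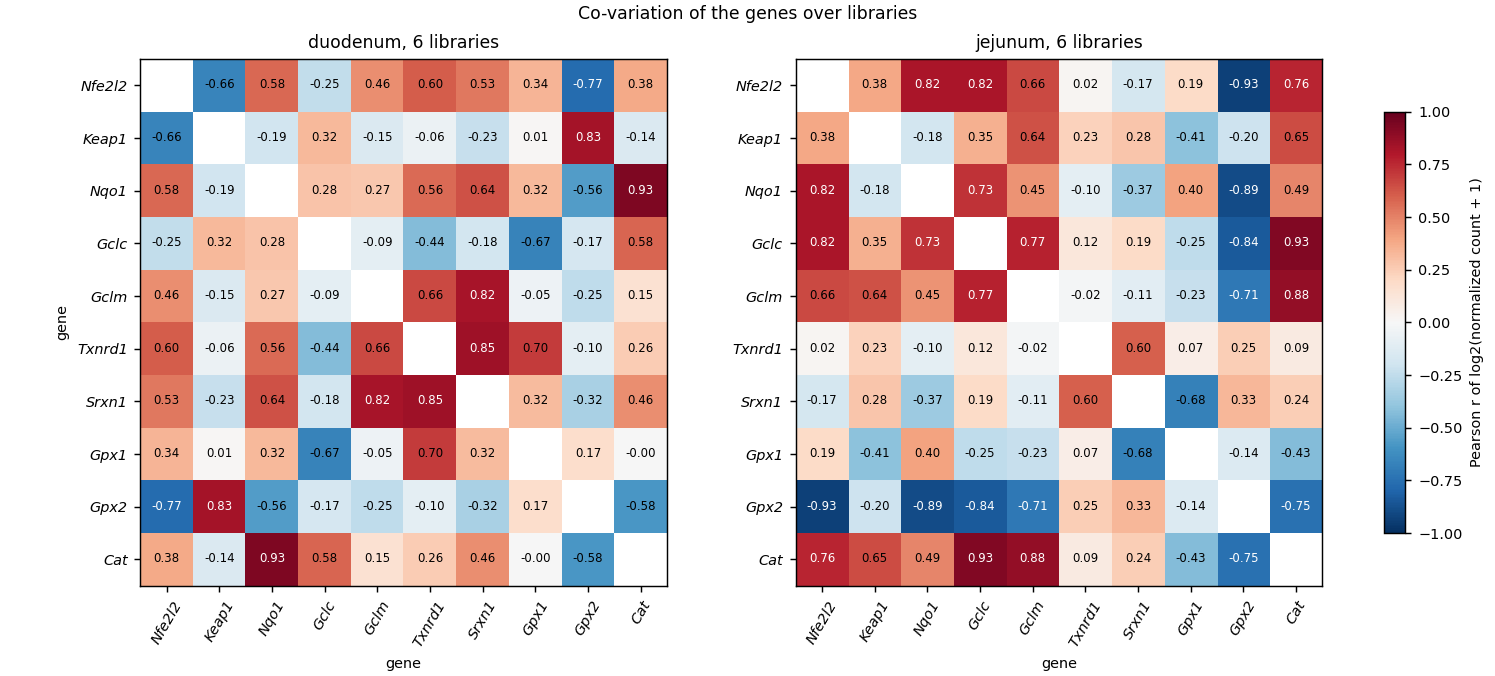
Pearson's r between the log2(normalized count + 1) values of each pair of genes (rows and columns of the grid) over the 6 libraries of the duodenum (left) and of the jejunum (right), colored from -1 to 1. Nqo1 and Cat had the largest r in the duodenum (0.932) and Gclc and Cat in the jejunum (0.930), and the jejunal Gpx2 values ran against those of Nfe2l2 (-0.931).

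Nqo1 and Cat had the largest r of the duodenum. They gave Pearson's r = 0.932 (exact permutation p = 0.00556) and Spearman's rho = 1 (exact permutation p = 0.00278), with adjusted values of 0.2 and 0.25, and the r was 0.957 without the 2 libraries farthest from the median of Nqo1. Both genes ranked the 6 libraries in the same order, from VSG replicate 2 to sham replicate 1. Their jejunal r was 0.485. Centred within surgery group, which removes the difference between the groups, the r of Nqo1 and Cat was 0.801 over the 6 duodenal and -0.259 over the 6 jejunal libraries, and 0.036 over the 12 libraries of both segments.

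In the jejunum, Gclc and Cat had the largest r, with Pearson's r = 0.93 (exact permutation p = 0.0111) and Spearman's rho = 0.8286 (exact permutation p = 0.0583) and adjusted values of 0.2 and 0.477. It fell to 0.374 without the 2 libraries farthest from the median of Gclc, which were both sham libraries, so the relation rested on those libraries. Centred within surgery group it was 0.854 in the jejunum and 0.569 in the 12 libraries of both segments. Centring keeps the difference between the 2 jejunal sham libraries (Cat 26286 and 13167, Gclc 2484 and 1959.6 in replicates 1 and 2). The r of 0.374 is that of the 4 jejunal VSG libraries alone. The most negative r of the jejunum was that of Nfe2l2 and Gpx2, with Pearson's r = -0.931 (exact permutation p = 0.00972) and Spearman's rho = -0.771 (exact permutation p = 0.103) and adjusted values of 0.2 and 0.681. It was -0.714 without the 2 libraries farthest from the median of Nfe2l2, -0.865 without sham replicate 1 and -0.883 without VSG replicate 1. In the duodenum this pair also had the most negative r of all pairs, with Pearson's r = -0.769 (exact permutation p = 0.0694) and Spearman's rho = -0.886 (exact permutation p = 0.0333) and adjusted values of 0.507 and 0.429. Without the 2 farthest libraries the duodenal r was -0.781. Centred within surgery group, the r of the pair was -0.87 in the jejunum, -0.376 in the duodenum and -0.752 in the 12 libraries of both. The 12 libraries come from 6 mice, and these r are given as a description.

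**Figure D4:**
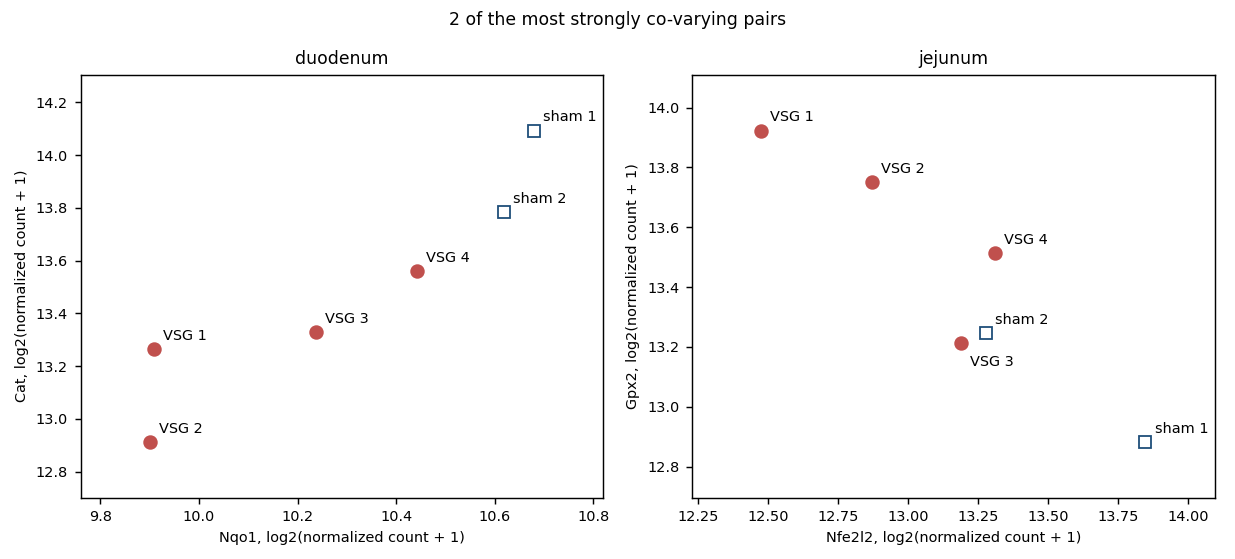
Each library as 1 point, with log2(normalized count + 1) of Nqo1 (x axis) against Cat (y axis) in the duodenum on the left, and of Nfe2l2 (x axis) against Gpx2 (y axis) in the jejunum on the right, sham as open squares and VSG as filled circles. Duodenal Nqo1 and Cat rank the libraries in the same order (rho 1), and jejunal Gpx2 is lower where Nfe2l2 is higher (r -0.931).

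Pairs that work together were examined whatever their r. The 2 subunits Gclc and Gclm gave Pearson's r = -0.0939 (exact permutation p = 0.853) and Spearman's rho = -0.0286 (exact permutation p = 1) in the duodenum, an r of -0.891 without the 2 libraries farthest from the median of Gclc. In the jejunum they gave Pearson's r = 0.771 (exact permutation p = 0.0931) and Spearman's rho = 0.657 (exact permutation p = 0.175), an r of 0.567 without the 2 farthest. The adjusted values were 0.92 and 1 in the duodenum and 0.507 and 0.787 in the jejunum. For the paralogs Gpx1 and Gpx2 the values were Pearson's r = 0.174 (exact permutation p = 0.699) and Spearman's rho = 0.0857 (exact permutation p = 0.919) in the duodenum and Pearson's r = -0.135 (exact permutation p = 0.772) and Spearman's rho = -0.257 (exact permutation p = 0.658) in the jejunum. Their adjusted values were 0.92 and 0.997, and 0.92 and 0.988, and r without the 2 farthest libraries was 0.0831 and 0.302.

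Nfe2l2 and its inhibitor Keap1 gave Pearson's r = -0.661 (exact permutation p = 0.15) and Spearman's rho = -0.714 (exact permutation p = 0.136) in the duodenum and Pearson's r = 0.383 (exact permutation p = 0.467) and Spearman's rho = 0.314 (exact permutation p = 0.564) in the jejunum. Their adjusted values were 0.596 and 0.681, and 0.92 and 0.988, and r without the 2 farthest libraries was -0.527 and -0.885. Txnrd1 and Srxn1, which both serve the peroxiredoxins, gave Pearson's r = 0.849 (exact permutation p = 0.0806) and Spearman's rho = 0.6 (exact permutation p = 0.242) in the duodenum, adjusted 0.507 and 0.946. The duodenal r was 0.351 without the 2 farthest libraries and -0.0912 without VSG replicate 1, the lowest library for both genes, so the relation rested on that library, whereas it was 0.931 without sham replicate 1. In the jejunum they gave Pearson's r = 0.599 (exact permutation p = 0.211) and Spearman's rho = 0.0286 (exact permutation p = 1), adjusted 0.698 and 1, and the r was -0.905 without the 2 farthest libraries, 0.655 without sham replicate 1 and 0.826 without VSG replicate 1. Over the 12 libraries centred within segment and surgery group the r of Txnrd1 and Srxn1 was 0.772. These 12 include duodenal VSG replicate 1, and no r without it was computed over them.

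The 5 genes whose pattern over the 12 duodenal and jejunal libraries, centred within segment, was most like that of Nfe2l2 were Rab22a (r 0.973), Nek6 (0.943), Ubr3 (0.941), Arg2 (0.924) and Pkm (0.922), of 14717 genes compared. For Nqo1 they were Coasy (r 0.925), Tpi-rs11 (0.913), Plekhh1 (0.912), Ugt2b35 (0.896) and Fam210a (0.876). None of the 10 genes is a member. Among the members, Nqo1 was the most like Nfe2l2, with an r of 0.743 at rank 439. Gpx2 was the least like Nfe2l2, with an r of -0.791 at rank 14524. Centring within segment leaves the difference between the surgery groups in these r. Centred within surgery group as well, the r with Nfe2l2 was 0.526 for Gpx1, 0.519 for Nqo1 and -0.752 for Gpx2. Gpx1 and Nqo1 were then nearly level, so neither can be called the most like Nfe2l2. Within surgery group, Nqo1 and Nfe2l2 had an r of -0.00236 over the duodenal libraries and 0.649 over the jejunal ones.

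The levels of Cat were set beside the markers of enterocytes, the absorptive cells of the villus. Over the 6 jejunal libraries the log2 summed enterocyte markers and Cat had Pearson's r = 0.963 (exact permutation p = 0.0125, adjusted 0.185) and Spearman's rho = 0.886 (exact permutation p = 0.0333, adjusted 0.333), and r was 0.879 without the 2 libraries farthest from the median of the markers and 0.8 without sham replicate 1. In the duodenum they had Pearson's r = 0.613 (exact permutation p = 0.185, adjusted 0.326) and Spearman's rho = 0.714 (exact permutation p = 0.136, adjusted 0.34), and r was 0.149 without the 2 farthest and 0.229 without sham replicate 1. For Gpx2 the duodenal values were Pearson's r = -0.746 (exact permutation p = 0.0806, adjusted 0.23) and Spearman's rho = -0.8286 (exact permutation p = 0.0583, adjusted 0.34), and r was -0.885 without the 2 farthest. Its jejunal values were Pearson's r = -0.614 (exact permutation p = 0.196, adjusted 0.326) and Spearman's rho = -0.486 (exact permutation p = 0.356, adjusted 0.474), and r was -0.479 without the 2 farthest and 0.0227 without sham replicate 1. These comparisons were added after the values were seen, and of the 20 computed (10 members in 2 segments) 4 had an exact permutation p under 0.05 for r and 0 an adjusted p under 0.05. Beside jejunal Cat these were jejunal Gclm (r 0.836, and 0.513 without the 2 farthest), jejunal Keap1 (r 0.82, and -0.364) and duodenal Srxn1 (r 0.858, and 0.16). In the duodenum 8 of the 15 enterocyte markers were lower after VSG at an unadjusted limma p under 0.05 and 6 of the 8 tuft cell markers higher, and in the jejunum 5 of 15 lower and 4 of 8 higher. Goblet cell markers were higher for 2 of 8 genes in the duodenum and 5 of 8 in the jejunum, and Paneth cell markers for 0 of 8 and 2 of 8. Stem cell markers were higher for 0 of 10 genes in both segments. Proliferation and enteroendocrine markers were each higher for 0 of 10 in the duodenum and 1 of 10 in the jejunum. In the ileum 1 of 10 stem cell, 2 of 10 proliferation and 1 of 10 enteroendocrine markers were higher, and 0 of 15 enterocyte markers lower. Of the immune markers tested, 2 of 4 were higher in the duodenum and 0 of 5 in the jejunum, and of the stromal and endothelial markers 3 of 9 were lower in the duodenum and 0 of 6 in the jejunum. The part of the cell mixture in the values of Cat, Gclc, Nqo1 and Gpx2 was not tested.

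The wider pathway was described with lists of genes around the members, by counts at an unadjusted limma p under 0.05 and by the median log2 fold change. Of 32 other Nrf2 targets tested in the duodenum, 1 was higher and 7 were lower after VSG, with a median of -0.31. Abcc2, an efflux pump for glutathione conjugates, fell past the thresholds for a call, from 17832 to 4919.7 normalized counts (-1.86 (SE 0.25, adjusted p = 0.196 from limma)), the only gene of these lists to be called. The call was lost with a pseudocount of 0.5, at which 0 duodenal genes were called. The glutathione S-transferase genes Gsta1, Gsta4 and Gstm3 had log2 fold changes of -2.14, -2.31 and -1.08. Each VSG library lay below both sham libraries for all 3, as for 8.01% of all genes tested in the duodenum. The reads of Gsta1 could have been shared with its close copy Gsta2, so its value is uncertain.

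In the jejunum 1 of 30 other targets was higher and 9 were lower, with a median of -0.42. Those with the lowest p were Gsta1 (-2.98), the UDP-glucose dehydrogenase gene Ugdh (-1.43), Abcc2 (-2.30) and Idh1 (-1.13), a cytosolic enzyme that makes NADPH. The 1 target that was higher in each of these segments was Gsr, glutathione reductase, which returns oxidized glutathione to its reduced form and was named after its values were seen. It had 5058 to 8679 after VSG and 3803 and 4902 after sham surgery in duodenal libraries, a log2 change of 0.70 (SE 0.27, adjusted p = 0.681 from limma), and 4691 to 7662 after VSG and 3559.6 and 4329 after sham surgery in the jejunum, a log2 change of 0.77 (SE 0.33, adjusted p = 0.76 from limma). In the ileum 0 of 29 other targets were higher and 1 lower, Osgin1, an oxidative stress response gene (-2.74 (SE 0.91, adjusted p = 0.736 from limma)), with a median of 0.20.

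Among 14 further regulators of Nrf2 and its relatives, Nfe2l1, which encodes a related transcription factor (Nrf1), was the only gene at that level in the duodenum and in the jejunum. It had 3218 to 6291 after VSG and 7659.8 and 8226 after sham surgery in duodenal libraries, a log2 change of -0.95 (SE 0.30, adjusted p = 0.559 from limma). In the jejunum the direction was the opposite, with 4014 to 5484 after VSG and 1751 and 2531 after sham surgery and a log2 change of 1.15 (SE 0.33, adjusted p = 0.76 from limma). The medians of the list were 0.00526 in the duodenum, 0.28 in the jejunum and, over 13 genes, -0.33 in the ileum, where 0 were at that level.

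Of the 23 other glutathione, thioredoxin and peroxiredoxin genes, 2 were lower and 0 higher in the duodenum, 2 of 22 were lower and 0 higher in the jejunum, and 1 of 21 was lower and 1 higher in the ileum, with medians of -0.17, -0.36 and 0.19. Ggt1, a brush border enzyme that breaks down glutathione outside the cell, was lower in all 3 segments, with log2 fold changes of -1.44, -1.50 and -1.02. The others were Glrx (-0.56 in the duodenum), a glutaredoxin, Gpx4 (-1.12 in the jejunum), the lipid hydroperoxide peroxidase, and Prdx3 (2.45 in the ileum), the mitochondrial peroxiredoxin.

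Genes of enzymes that produce or remove superoxide were described in each segment. In the duodenum Noxa1, an activator of the NADPH oxidase NOX1, had a log2 change of 1.82 and Duox2, a hydrogen peroxide-producing oxidase of the epithelium, 1.41, while Sod1, the cytosolic superoxide dismutase, had -0.46, so that 2 of 11 genes were higher and 1 lower (median -0.11). In the jejunum 2 of 10 were higher and 0 lower (median 0.40), Duox2 at 1.86 and its maturation factor Duoxa2, which had 541 to 1476 after VSG and 2.23 and 126 after sham surgery. In the ileum 0 of 10 were higher and 2 lower (median -0.75), Duox2 at -1.37 and Duoxa2 at -2.66.

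Gpx1, Gpx2 and Txnrd1 are selenoproteins, and of 15 genes of selenoprotein synthesis and other selenoproteins, 0 were higher and 1 lower in the duodenum, 2 higher and 0 lower in the jejunum, and 0 higher and 1 lower in the ileum (medians -0.0617, 0.19 and 0.12). Selenop, the selenium transport protein, was the lower gene in both the duodenum (-1.22) and the ileum (-1.04). The jejunal pair was Selenom (1.91) and Lrp8, a Selenop receptor listed at 0 in both sham libraries and at 43.6 to 129 in the VSG libraries.

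Peroxisome genes were examined because catalase resides there. In the duodenum 1 of 18 was higher and 5 were lower after VSG (median -0.41), among them the fatty acid oxidation enzymes Hsd17b4 (-1.07), Ehhadh (-0.62) and Scp2 (-0.85). In the jejunum 0 of 18 were higher and 4 lower (median -0.30), the import receptor Pex5 (-1.03), Hsd17b4 (-1.10), Scp2 (-0.98) and Ehhadh (-0.995). In the ileum 1 was higher, Pex11a (2.24), and 1 lower, Pex19 (-2.10), with a median of 0.13. Enterocyte markers were lower after VSG in the same duodenal and jejunal libraries, with medians of -0.91 and -1.05, and their part in the peroxisome values was not tested.

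**Figure D5:**
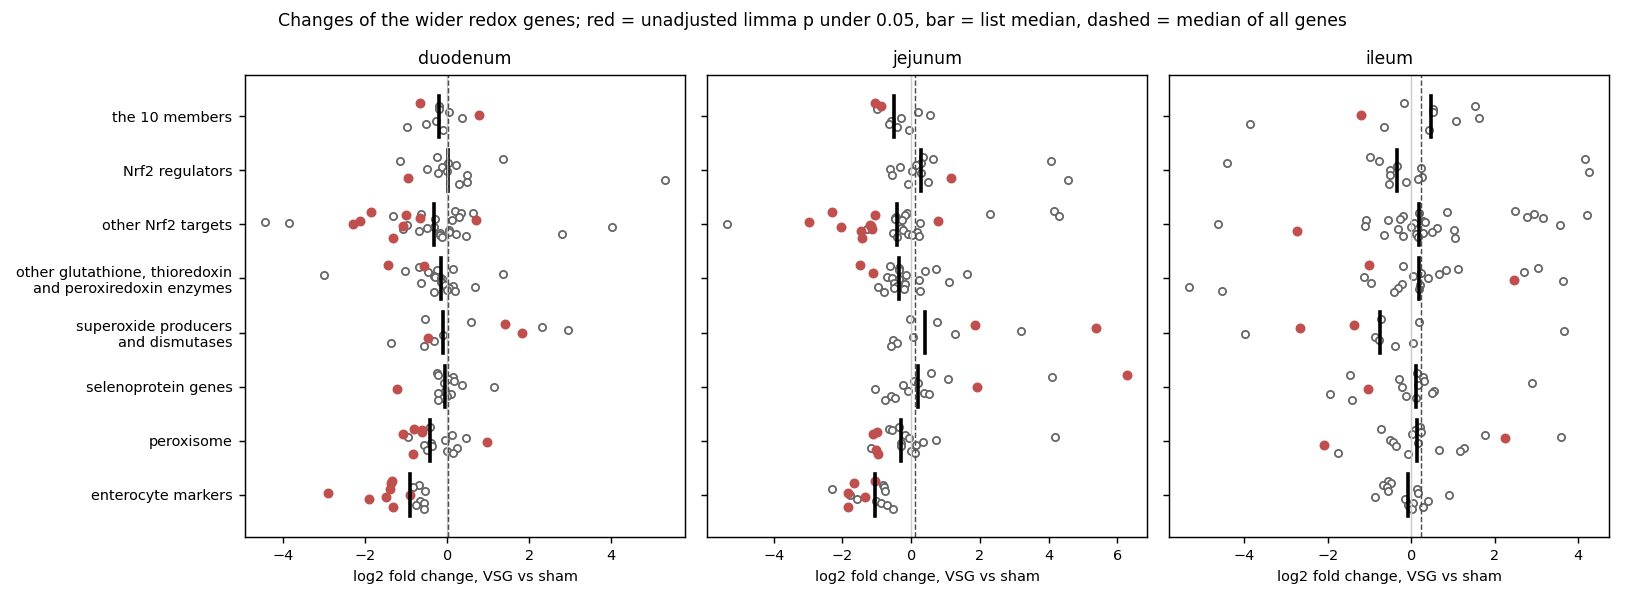
Log2 fold change of VSG against sham (x axis) for each gene of the members, of 6 lists of related genes and of the enterocyte markers (y axis) in the 3 segments, red where the unadjusted limma p was under 0.05, with a bar at the list's median and a dashed line at the median of all genes tested. The enterocyte markers have the lowest median in the duodenum (-0.91) and the jejunum (-1.05), and the median of the other Nrf2 targets lies below that of all genes in both.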

How the data were processed

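RNA of GFP+ cells was sequenced (single-end, 85 nt). The authors aligned reads to mm10 (GRCm38) with STAR 2.5.3a, quantified transcripts with Salmon 0.6.0 and deposited signal values per gene, counts normalized with DESeq2 within each segment. Within a tolerance of 0.02 reads, 39.3% to 50.1% of values were whole reads, so no count model was run. The deposited tables of fold changes and p-values were not used. All columns were mapped to libraries (0 left out). Libraries that the authors set aside because few reads mapped are not analysed here. Positions are from GENCODE M21 (48058 of 48440 identifiers matched).

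Tests used limma 3.58.1 (R 4.3.3) with a variance trend, on log2(normalized count + 1), which understates the change of low genes. Exact permutation tests were two-sided. Co-variation used Python 3.11.15 with numpy 2.4.6 and scipy 1.17.1. Scripts were tested on simulated data. Each library is 1 mouse and segment, and equal replicate numbers of VSG and sham are different mice, so they pair no samples. Members, lists and tests were chosen with earlier results of these data known. All members are named. Pairs named are 4 fixed pairs and the extremes of each segment, and of each list at most 4 genes at an unadjusted p under 0.05 per segment, lowest p first. A gene that this rule names is not reported here. The libraries said to stand apart, the within-surgery r and the enterocyte comparison were added after the values were seen. Other settings tried were a pseudocount of 0.5 or 10, a filter at 50 or none, 2 other scalings, no trend, a stricter adjusted p (0.05), omission of single libraries, and a replicate block.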

Additional observations from a re-analysis of the deposited data

Results flagged for a closer look

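Of 20 groups of 4 libraries examined for a library far from the others (10 genes in the duodenal and jejunal VSG groups), 1 passed Dixon's limit, and chance alone passes about 1 in 20. It was Keap1 in VSG replicate 2 of the jejunum, with 4319.5 normalized counts, where the gap to the nearest of the other 3 VSG libraries was 0.837 of the range of the group.

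In 2 genes every VSG library of one segment lay on one side of the sham libraries and every VSG library of another segment on the opposite side. For Gclc the log2 fold change was 1.52 in the ileum and -0.88 in the jejunum. For Gpx2 it was 0.77 in the duodenum and -1.20 in the ileum. Of all genes, 17% lay wholly above and 11.6% wholly below the sham libraries in the ileum, which has 2 libraries a group. In the jejunum 6.21% lay wholly below and in the duodenum 6.44% wholly above. The share of all genes on opposite sides in 2 segments was not computed, and these differences between segments were not tested.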

How the results depend on the processing

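Of the log2 fold changes of the 10 members under settings other than leaving out a library, 209 kept their direction and their side of an unadjusted p of 0.05, 8 kept the direction but no longer passed it, and 3 reversed. The reversals were Txnrd1 in the jejunum with quantile normalization (0.0813) and with each library scaled to the same total (0.15), and Gpx1 in the duodenum with a replicate block (-0.15). The block used the numbers 1 and 2 that VSG and sham share in the duodenum, which are different mice, and under the replicate block 1 member was at an unadjusted p under 0.05 (2 without it) and 0 genes were called. Scaling to the same total moved the median log2 fold change of all genes by 0.0806 (duodenum), 0.23 (jejunum) and 0.11 (ileum), and quantile normalization by -0.00428, -0.14 and -0.16. The r of Gpx1 and Gpx2 in the jejunum turned to 0.395 with the same total, and the jejunal r of Nfe2l2 and Gpx2 (-0.767) and of Gclc and Cat (0.8293) no longer had an exact permutation p under 0.05. With a pseudocount of 10 and with the same total, 0 pairs had an adjusted p under 0.05, and under these settings, without trend and without each library in turn, 0 members differed between jejunum and duodenum at an unadjusted p under 0.05.

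In the duodenum 4 genes were called, and 0 with a pseudocount of 0.5, no filter, a filter at 50, the same total or an adjusted p under 0.05, 10 with a pseudocount of 10, and 43 without trend, where 1 member instead of 2 was at an unadjusted p under 0.05. In the jejunum 2 genes were called, 1 at an adjusted p under 0.05 and 61 without trend. The 2 jejunal members at an unadjusted p under 0.05 became 1 with a pseudocount of 10, with quantile normalization and with the same total (Gclc lost in each) and 0 without trend. In the ileum 0 genes were called, 3 with a pseudocount of 10 and 463 without trend, where the 1 member became 0. The cause was not tested.

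Leaving out each library in turn gave 0 to 259 called genes in the duodenum (259 without sham replicate 1, 47 without sham replicate 2, 12 without VSG replicate 1, 0 without VSG replicate 4), 1 to 2710 in the jejunum (2710 without sham replicate 2, 16 without sham replicate 1, 1 without each VSG replicate) and 0 to 631 in the ileum (625 without VSG replicate 4, 631 without VSG replicate 5), with a lone sample assumed to vary like the others. Members at an unadjusted p under 0.05 then numbered 1 to 2 (duodenum), 1 to 2 (jejunum) and 0 to 2 (ileum). Duodenal Cat and jejunal Cat lost that level without sham replicate 1 of their segment, jejunal Gclc without any 1 of the VSG replicates, and ileal Gpx2 without any 1 of its libraries, all with the direction kept. Members that gained it were jejunal Gclm without VSG replicate 2 (-1.24), and in the ileum Srxn1 without VSG replicate 5 (-1.24), Keap1 (3.27) and Gclc (1.66) without sham replicate 1 and Nfe2l2 without sham replicate 2 (1.66), and jejunal Cat and Gclc were called without sham replicate 2. The ranges of the changes that reversed were, in the duodenum, -0.43 to 0.0295 for Gclc, -0.63 to 0.20 for Gclm, -0.19 to 0.0614 for Txnrd1 and -0.19 to 0.28 for Gpx1. In the jejunum they were -1.26 to 0.68 for Keap1, -0.17 to 0.0204 for Txnrd1, -0.69 to 0.0155 for Srxn1 and -0.0591 to 0.44 for Gpx1. In the ileum they were -0.0132 to 3.27 for Keap1, -7.78 to 0.0514 for Nqo1 and -0.67 to 0.32 for Cat.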
